A study of Mus musculus with 37 samples.

Results

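The genes described here are 8 transcription factors of somite differentiation, Tcf15, Meox1, Meox2, Foxc1, Foxc2, Pax1, Uncx and Tbx18, taken by symbol from the deposited counts of 35542 genes. They were measured by poly(A) RNA-seq in tailbud tissue of 37 mouse embryos (C57BL/6/Cast F1, E8 to 8.5) that had 6 to 11 somites, with 1 library per embryo. In all, 21 were Smchd1 wt embryos, which were Smchd1 fl/+ from mothers without Cre and so still carried a floxed allele, and 16 were Smchd1 matΔ embryos, which were Smchd1 del/+ from mothers whose oocytes had lost Smchd1 through MMTV-Cre. Both genotypes had an intact paternal Cast allele. At 6, 7, 8, 9, 10 and 11 somites the wt embryos numbered 4, 4, 3, 3, 4 and 3 and the matΔ embryos 4, 3, 2, 2, 3 and 2. All 6-somite embryos and the matΔ embryos at 8 and 9 somites were female. The embryo is the replicate, and the labels give no litter.

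Somites are blocks of paraxial mesoderm that bud from the anterior end of the presomitic mesoderm, turn epithelial and then divide into sclerotome, which gives vertebrae and ribs, and dermomyotome, which gives muscle and dermis. Tcf15 (paraxis) is a basic helix-loop-helix factor that acts in the epithelialisation of somites. Meox1 and Meox2 are homeobox factors of the early somite, Foxc1 and Foxc2 are forkhead factors of paraxial and intermediate mesoderm, Pax1 is a paired-box factor of the sclerotome, and Uncx and Tbx18 set the identity of the caudal and rostral parts of each somite. Per the study's methods, the cut that freed the tailbud lay 1.5 somite lengths posterior to the youngest somite, a level chosen to leave somites behind. In bulk tissue, fewer cells that express a gene and less RNA per cell cannot be told apart.

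Smchd1 itself was lower in matΔ embryos, at 88.7 ± 13.4 CPM (counts per 1e6 counts, TMM-normalised, SD, n = 16) against 149 ± 23.0 CPM (n = 21), a log2 fold change of -0.74 (edgeR, adjusted p = 1.45e-07). Sequencing depth ran from 0.916 to 80.6 (median 12.9) in 1e6 counts. Matdel 6 somites replicate 3 (a Smchd1 matΔ embryo) was the shallowest, and a floor of 3 counts was worth 3.27 CPM there, against 0.0365 to 0.235 CPM in the deepest and the median library. Matdel 6 somites replicates 1 and 2 had 2.77% and 1.82% of their counts at the ribosomal RNA locus, against 0.176% to 1.28% in the other 35 libraries. Presomitic mesoderm markers were present in each library, with the summed level of Tbx6, Msgn1, Dll1, Dll3, Hes7 and Lfng at 115 to 467 CPM in wt and 243 to 363 CPM in matΔ embryos. Genotype differences at 6 somites, over 6 to 8 somites and over all stages are given with and without these matΔ 6-somite libraries.

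The promoter table of RefSeq (GRCm38.p6) matched 5 of the 8 genes, Foxc1, Meox2, Tbx18, Pax1 and Uncx. Of these, only Foxc1, Meox2 and Tbx18 had enough bases before both the RefSeq start and the deposited gene model, and that stretch is shown. Each is written 5′ to 3′ on the strand of its gene, and capitals mark matches to CANNTG, the E-box core that basic helix-loop-helix factors can bind, searched on both strands.

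Foxc1: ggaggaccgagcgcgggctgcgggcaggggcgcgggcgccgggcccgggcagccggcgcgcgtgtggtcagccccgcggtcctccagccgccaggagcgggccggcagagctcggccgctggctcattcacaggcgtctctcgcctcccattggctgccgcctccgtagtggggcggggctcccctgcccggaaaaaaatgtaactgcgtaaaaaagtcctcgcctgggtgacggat

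Meox2: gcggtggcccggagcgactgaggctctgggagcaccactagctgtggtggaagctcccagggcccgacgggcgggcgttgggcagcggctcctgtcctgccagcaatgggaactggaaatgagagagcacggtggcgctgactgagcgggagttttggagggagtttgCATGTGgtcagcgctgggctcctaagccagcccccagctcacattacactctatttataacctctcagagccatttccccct

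Tbx18: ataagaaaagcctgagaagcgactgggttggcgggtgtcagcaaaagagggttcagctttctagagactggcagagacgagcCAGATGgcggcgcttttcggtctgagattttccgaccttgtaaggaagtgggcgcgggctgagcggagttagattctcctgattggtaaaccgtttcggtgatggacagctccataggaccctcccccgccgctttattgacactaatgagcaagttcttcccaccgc

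The Foxc1 stretch covers chr13:31806396-31806632 on the plus strand, with 72.6% G and C and 29 CpG in 237 bases. Of 27025 promoters with 250 bases before the start, 94.3% had a lower G and C share. The Meox2 stretch (chr12:37108290-37108539, plus strand) has 62.0% G and C with 12 CpG, and that of Tbx18 (chr9:87731261-87731510, minus strand) has 54.0% with 15 CpG, where the median promoter has 52.0%. An E-box core was found 1 time each before Meox2 and Tbx18 and not before Foxc1, and 66.0% of all promoters hold it. Among other short motifs, CCAAT matched 1 time before Foxc1 and before Tbx18 (34.5% of promoters), TATAAA 1 time before Meox2 (13.0%), TGGGAA, the core that RBPJ of the Notch pathway reads, 1 time before Meox2 and Tbx18 (21.5%), and GCCCCGCCC, a GC box, 1 time before Foxc1 (10.3%). The 6 letters TCACAC, part of a T-box element, matched none of the 3 stretches.

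The 8 genes were expressed at very different levels. On a per-length scale (CPM per kilobase of exon), wt embryos had 2.49 ± 1.06 for Foxc1, 2.02 ± 0.816 for Foxc2 and 1.49 ± 0.767 for Meox1 (SD, n = 21). Tcf15 followed at 0.499 ± 0.471, Meox2 at 0.128 ± 0.198, Tbx18 at 0.0353 ± 0.0306 and Uncx at 0.00111 ± 0.00507 on the same scale. Pax1 was at 0. The means of the forkhead pair and Meox1 lay within the larger SD of each other, as did those of Meox2 and Tbx18. Meox1 lay above Tcf15 by more than the larger SD. These SDs are between embryos, and levels of different genes within the same embryo were not tested against each other.

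Foxc1 (chromosome 13, 31806633 to 31812476) and Foxc2 (chromosome 8, 121116171 to 121118895) had counts in 37 of 37 libraries, 8846 and 4088 in all. Meox1 (chromosome 11, 101877510 to 101894374) had 2847 counts in 36 libraries, the exception being the shallowest. Tcf15 (chromosome 2, 152143561 to 152149097) had 522 counts in 33 libraries. Foxc2 lies inside the model of Gm20388 on the same strand, which holds 56577 counts, so its values are uncertain to the extent that reads were shared between them.

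Meox2 and Tbx18 had 167 counts each, spread over 27 and 26 libraries, so their single-library values mostly rest on a few reads. Uncx had 22 counts in 3 libraries. Of these, 14 were in matdel 6 somites replicate 2 (1.02 CPM, exact 95% Poisson interval 0.558 to 1.71, which covers counting error only), 2 in matdel 6 somites replicate 1 and 6 in wt 9 somites replicate 1, the deepest library. Pax1 had 0 counts in all 37 libraries, which allows a level of up to 0.00554 CPM over the summed libraries. Per library the same floor of 3 counts ranged from 0.0365 to 3.27 CPM. The sclerotome gene Nkx3-2 was likewise at 0 in every library, while Pax9, a paralogue of Pax1, averaged 0.995 ± 0.481 CPM in wt embryos.

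**Figure D1:**
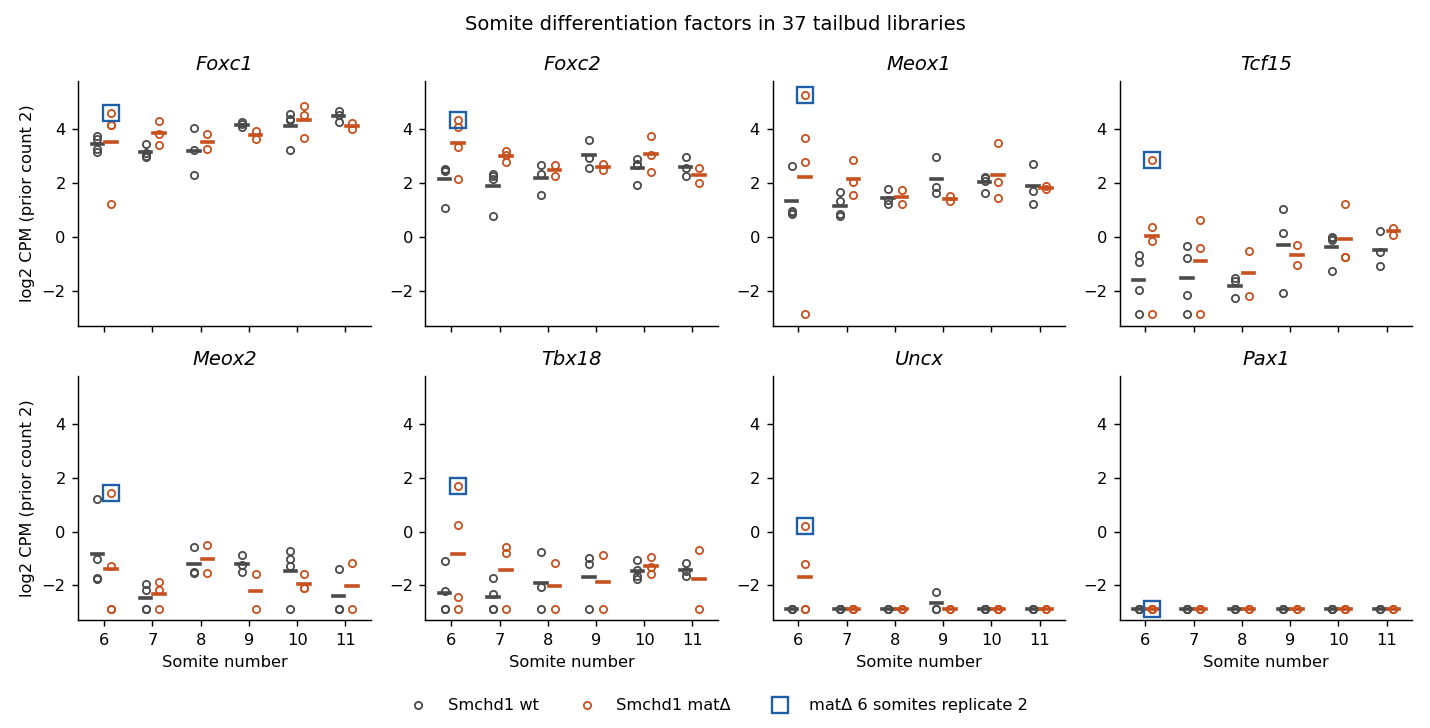
Level of each of the 8 genes (log2 CPM with a prior count of 2) against somite number in 37 tailbud libraries. Circles are single embryos, short bars are group means and the blue square marks matdel 6 somites replicate 2, which is the highest library for Foxc2, Meox1, Tcf15, Meox2, Tbx18 and Uncx; Pax1 is at 0 counts throughout.

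The question of the somite trend was whether these genes change as control embryos go from 6 to 11 somites. Foxc1 rose with somite number in wt embryos, by 0.255 ± 0.0516 (SE) on the log2 scale per somite (edgeR quasi-likelihood test, adjusted p = 0.00362), and no other member passed the test. At 6 somites the wt embryos had 12.4, 8.84, 9.45 and 13.4 CPM of Foxc1. At 7 somites they had 7.85, 8.61, 10.9 and 7.80 CPM, and at 8 somites 4.75, 16.4 and 9.30 CPM. These early embryos were low apart from 1 embryo of 8 somites.

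At 9 somites the Foxc1 level was 18.4, 16.7 and 19.0 CPM. At 10 somites it was 9.23, 21.1, 20.1 and 24.0 CPM, and at 11 somites 25.3, 23.4 and 19.1 CPM. The later embryos were thus higher, at 19.6 ± 4.54 CPM (n = 10) against 9.97 ± 3.16 CPM (n = 11) for 6 to 8 somites, with overlap from the highest 8-somite and the lowest 10-somite embryo.

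Of the 3 members abundant enough for this fit, 1 was called and 2 were not, where 6.64% of 15148 genes tested were called and 3.13% were called as rising. Meox1 had a slope of 0.15 ± 0.0748 (adjusted p = 0.239) and Foxc2 one of 0.13 ± 0.0690 (adjusted p = 0.277). The median slope of the 3 was 0.15, beside a median of -0.0018 over all genes tested. At an unadjusted p under 0.05, 1 of the 3 passed, where 21.4% of all genes did.

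The Foxc1 slope held in all alternatives run, from 0.23 to 0.28 with adjusted p-values of 7.69e-05 to 0.0191. Without wt 6 somites replicate 4, whose Meox1 level of 6.02 CPM stood above the other 3 (1.65, 1.82 and 1.74 CPM), the Meox1 slope was 0.26 and also passed (adjusted p = 0.0197), with 4.74% of genes called in that fit. Tcf15, Meox2, Tbx18 and Uncx were too low for the filter. Without the filter, Tcf15 had a slope of 0.36 ± 0.160 (adjusted p = 0.210) and Tbx18 of 0.27 ± 0.182 (adjusted p = 0.434), while that of Meox2 was -0.31 ± 0.192 (adjusted p = 0.398). None of these passed.

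Genes of related tissues gave a frame for this trend. Of 6 presomitic mesoderm markers none passed in either direction, Dll1, a Notch ligand, having a slope of 0.14 ± 0.0495 (adjusted p = 0.0825). Of 4 sclerotome markers tested none passed, with Twist1 at -0.11 ± 0.0690 (adjusted p = 0.383).

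Of 3 somite boundary markers tested, 1 fell, Mesp1, a factor of early and segmenting mesoderm (slope -0.75 ± 0.158, adjusted p = 0.00480). Of 4 intermediate mesoderm markers, 3 fell: Lhx1 (-0.50 ± 0.117, adjusted p = 0.0115), Wt1 (-0.58 ± 0.148, adjusted p = 0.0203) and Pax2 (-0.22 ± 0.0636, adjusted p = 0.0392). Of all genes tested 6.64% were called, 3.13% as rising. Falls were not particular to these lists, with 2 of 5 gut endoderm, 2 of 5 visceral endoderm and 1 of 4 lateral plate and heart markers falling. Rises were called for 1 of 5 gut endoderm, 1 of 5 endothelial, 1 of 5 erythroid and 1 of 4 neural tube markers. 

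In matΔ embryos 0 of the 4 members tested passed (edgeR), where 3.07% of genes were called. Foxc1 had a slope of 0.07 ± 0.0711 (adjusted p = 0.675), Foxc2 of -0.18 ± 0.0788 (adjusted p = 0.241), Meox1 of -0.30 ± 0.146 (adjusted p = 0.299) and Tcf15 of -0.14 ± 0.189 (adjusted p = 0.753). At an unadjusted p under 0.05, 1 of the 4 passed, where 17.5% of all genes did, and DESeq2 also called 0. Without matdel 6 somites replicate 2 the slope of Tcf15 was 0.16 and that of Meox1 -0.09, so that both negative values rested largely on that embryo.

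The difference in slope between genotypes was itself tested and 0 of 4 passed, with 0 genes called of 15978 (0%) by edgeR and 0 by DESeq2. All 4 differences were negative, from -0.60 ± 0.250 for Tcf15 to -0.19 ± 0.0867 for Foxc1 (adjusted p = 0.9998 for each), and all 4 had an unadjusted p under 0.05, where 3.92% of genes did. Without matdel 6 somites replicate 2 the differences were -0.27 for Tcf15, -0.30 for Meox1, -0.15 for Foxc1 and -0.27 for Foxc2, and 2 of 4 kept an unadjusted p under 0.05 (3.36% of genes). Without matdel 6 somites replicates 1 and 2, those rich in ribosomal RNA, they were -0.26, -0.19, -0.12 and -0.198, and 0 of 4 did (3.04% of genes). Without the shallow replicate 3 they ran from -0.61 to -0.21. The wt and matΔ trends of Foxc1 were thus not shown to differ, although the trend in wt embryos alone passed.

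The comparison between genotypes at matched somite number asked whether these genes differed between matΔ and wt embryos. Loss of maternal SMCHD1, the del/+ genotype of the embryo and the Cre of the mother coincide in the matΔ embryos and cannot be told apart. Over all stages no member passed. At 6 somites, Meox1 and Foxc2 were higher in 3 of 4 matΔ embryos than in every wt embryo, but the test did not pass in the fit used here, and the size of the Meox1 difference depended on matdel 6 somites replicate 2.

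At 6 somites Meox1 was at 12.7, 39.0, 0 and 6.72 CPM in matΔ embryos 1 to 4 and at 1.65, 1.82, 1.74 and 6.02 CPM in wt embryos. Foxc2 was at 17.1, 20.2, 4.36 and 10.1 CPM in matΔ and at 5.49, 1.95, 5.39 and 5.66 CPM in wt embryos. For both genes the shallow replicate 3 was the exception, where 0 counts of Meox1 and 4 counts of Foxc2 were found, with exact 95% Poisson upper limits of 4.02 and 11.2 CPM.

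Tcf15 was at 0.756, 7.07, 0 and 1.17 CPM in matΔ and at 0.392, 0, 0.498 and 0.1204 CPM in wt embryos of 6 somites. Foxc1 was at 17.8, 24.5, 2.18 and 17.8 CPM in matΔ and at 12.4, 8.84, 9.45 and 13.4 CPM in wt embryos. Again 3 of 4 matΔ embryos lay above every wt embryo and replicate 3 did not, so that the groups overlapped for all 4 genes. At least 3 of 4 matΔ embryos lay above every wt embryo for 4 of the 6 members tested and for 7.74% of all genes tested.

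The fitted log2 fold changes at 6 somites were 2.56 ± 0.585 for Meox1 (adjusted p = 0.163), 1.58 ± 0.364 for Foxc2 (adjusted p = 0.163), 3.22 ± 0.945 for Tcf15 (adjusted p = 0.239) and 0.68 ± 0.329 for Foxc1 (adjusted p = 0.422). Tbx18 was at 3.34 ± 1.19 (adjusted p = 0.303) and Meox2 at 0.38 ± 0.986 (adjusted p = 0.929). Thus 0 of 6 members passed (edgeR), as did 0 of 16729 genes (0%). At an unadjusted p under 0.05, 5 of the 6 passed, Tbx18 among them, where 11.7% of genes did and 5.30% did so as higher. The median over the 6 was 2.07, beside -0.0096 over all genes tested. Tbx18 and Meox2 fell below the filter without matdel 6 somites replicate 2. Both the count and the median over the 6 thus rest in part on that embryo, and values without it are given below.

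This result depended on the tool and the filter. With the DESeq2 Wald test Meox1 (2.47, adjusted p = 0.0191) and Foxc2 (1.58, adjusted p = 0.0191) passed, where 0.233% of genes did. With no filter on low counts the same genes passed (adjusted p = 0.00233 and 0.00829), where 0.128% did. They also passed without matdel 6 somites replicate 4, at 2.83 and 1.73, where 1.84% of genes did.

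Leaving out matdel 6 somites replicate 2 gave 1.48 for Meox1 (adjusted p = 0.347), 1.31 for Foxc2 (adjusted p = 0.274), 1.64 for Tcf15 (adjusted p = 0.547) and 0.44 for Foxc1 (adjusted p = 0.684). All 4 stayed positive, with 2 of 4 at an unadjusted p under 0.05 (11.1% of genes), and Tbx18 and Meox2 then fell below the filter. Without both ribosomal RNA-rich libraries (replicates 1 and 2) the values were 0.87, 0.86, 1.77 and 0.29, with adjusted p-values of 0.906 to 1, and 0 of 4 had an unadjusted p under 0.05 (5.34% of genes). Replicate 1 had the higher ribosomal RNA share of this pair and the lower summed level of the 8 genes, at 49.7 CPM against 97.5 CPM. The part of the ribosomal RNA share in the result was not tested. Without the shallow replicate 3 the values were 2.82 for Meox1 (adjusted p = 0.0519), 1.75 for Foxc2 (adjusted p = 0.104), 3.42 for Tcf15 (adjusted p = 0.158) and 0.87 for Foxc1 (adjusted p = 0.218).

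At 7 somites Foxc2 was at 8.20, 6.78 and 8.99 CPM in matΔ and at 1.57, 4.30, 4.98 and 4.72 CPM in wt embryos. Every matΔ embryo lay above every wt embryo, as was the case for 3.62% of genes tested, with a log2 fold change of 0.99 ± 0.395 (adjusted p = 1). Meox1 was at 3.94, 2.82 and 7.04 CPM against 1.57, 1.66, 3.04 and 2.39 CPM, and Foxc1 at 14.0, 10.7 and 19.99 CPM against 7.85, 8.61, 10.9 and 7.80 CPM. For both, 3 of 3 matΔ embryos were above the wt mean, but the groups overlapped. At this stage 0 of 6 members and 0% of genes passed, and 1 of 6 had an unadjusted p under 0.05, where 1.45% of genes did.

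At 9 somites all 6 fitted values were negative and none passed. Meox1 was at 2.36 and 2.70 CPM in matΔ against 7.81, 3.45 and 2.99 CPM in wt embryos, and Foxc1 at 12.5 and 15.3 CPM against 18.4, 16.7 and 19.0 CPM. Meox2 had only 3 and 0 counts in matΔ against 34, 3 and 4 counts in wt embryos, with nearest values of 0.203 and 0.213 CPM. Both matΔ embryos lay below every wt embryo for Meox1, Meox2 and Foxc1, as was the case for 6.64% of genes. The same held for Foxc1 at 11 somites (16.1 and 18.7 CPM against 25.3, 23.4 and 19.1 CPM), where 12.9% of genes showed it. At 10 somites 5 of 6 fitted values were positive (median 0.49), among them Foxc2 at 0.65 ± 0.381 and Meox1 at 0.52 ± 0.595. Foxc1 was at 12.6, 23.1 and 29.0 CPM in matΔ against 9.23, 21.1, 20.1 and 24.0 CPM in wt embryos, and Foxc2 at 5.15, 8.07 and 13.5 CPM against 3.67, 6.19, 7.40 and 6.49 CPM. The groups overlapped for both genes, and the 29.0 CPM of matdel 10 somites replicate 3 was the highest Foxc1 level of the 37 libraries. At 8 somites 5 of 6 values were positive with a median of 0.048. At 8, 9, 10 and 11 somites 0 of 6 members passed and 0 of 6 had an unadjusted p under 0.05, where 1.8%, 1.01%, 1.08% and 2.21% of genes did.

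Pooled over 6 to 8 somites (20 embryos), the log2 fold changes were 2.04 ± 0.711 for Tcf15, 1.499 ± 0.466 for Meox1, 1.03 ± 0.268 for Foxc2 and 0.59 ± 0.234 for Foxc1, with adjusted p-values of 0.486, 0.469, 0.339 and 0.563. None of the 4 passed (0.00639% of genes did), and 4 of 4 had an unadjusted p under 0.05, where 7.77% of genes did. DESeq2 called 0 of the 4. Without the filter Meox1 and Foxc2 passed (adjusted p = 0.0162 and 0.0169), where 0.166% of genes did. Without matdel 6 somites replicate 2, Meox1 was at 0.94, Foxc2 at 0.88 and Foxc1 at 0.48. Tcf15 was no longer abundant enough to be tested, and 2 of the other 3 had an unadjusted p under 0.05 (7.14% of genes). Without the ribosomal RNA-rich pair Meox1 was at 0.65, Foxc2 at 0.68 and Foxc1 at 0.44, and 1 of 3, Foxc2, did (7.68% of genes). Without replicate 3 the 4 values ran from 0.67 to 2.12.

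Over 9 to 11 somites (17 embryos) the values were 0.11 ± 0.488 for Tcf15, -0.06 ± 0.320 for Meox1, -0.11 ± 0.182 for Foxc1 and -0.0018 ± 0.236 for Foxc2, each with an adjusted p of 0.9998. None of the 4 passed (0.00635% of genes did), 0 had an unadjusted p under 0.05 (1.88% of genes did) and DESeq2 called 0. Foxc1 in these later embryos was at 18.2 ± 6.04 CPM (n = 7) in matΔ against 19.6 ± 4.54 CPM (n = 10) in wt embryos.

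Over all 37 embryos Tcf15 was at 1.08 ± 0.474, Meox1 at 0.74 ± 0.331, Foxc2 at 0.55 ± 0.205 and Foxc1 at 0.23 ± 0.161, with adjusted p-values of 0.867 to 0.883. None of the 4 passed (0.0125% of genes did), DESeq2 called 0, and 3 of 4 had an unadjusted p under 0.05, where 5.67% of genes did. Without matdel 6 somites replicate 2 these were 0.67, 0.47, 0.47 and 0.17, and 1 of 4, Foxc2, had an unadjusted p under 0.05 (5.28% of genes). Without the ribosomal RNA-rich pair they were 0.65, 0.32, 0.35 and 0.14, and 0 of 4 did (4% of genes). Without replicate 3 they ran from 0.26 to 1.095.

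**Figure D2:**
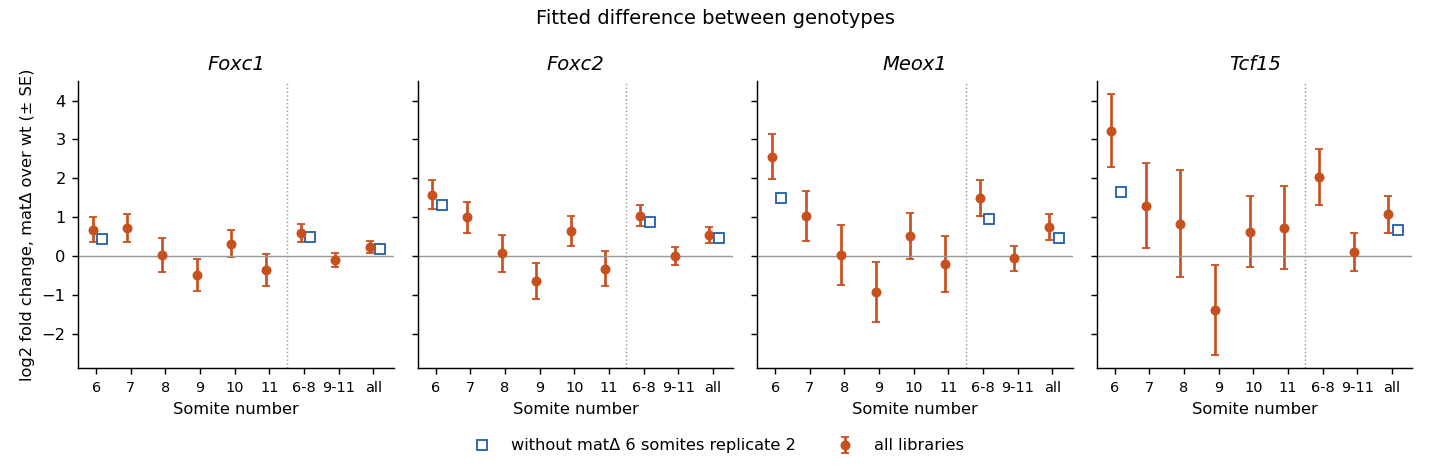
Fitted log2 fold change of Smchd1 matΔ over wt (filled circles, ± SE) for 4 genes at each somite number, in the ranges 6 to 8 and 9 to 11 and over all stages. Open squares give the value without matdel 6 somites replicate 2; at 6 somites Meox1 goes from 2.56 to 1.48 and Tcf15 from 3.22 to 1.64 while the pooled values for 9 to 11 somites lie from -0.11 to 0.11.

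Matdel 6 somites replicate 2 stood apart for these genes as a group. The 8 genes summed to 97.5 CPM in it and to 6.54 to 56.3 CPM (median 24.98) in the other 36 libraries. Without it 4 members passed the filter. It was the highest of 37 libraries for Tcf15, Meox1 and Foxc2 among these, and not for Foxc1. Of genes tested with it included, 5.71% had their highest value there. It was also highest for Meox2 and Tbx18, which fell below the filter without it, and for Uncx, which was too low to be tested. Tcf15 at 7.07 CPM was 3.22 times the next highest library and 14.8 times the median of the others.

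Meox1 at 39.0 CPM was 3.07 times and Tbx18 at 3.14 CPM 2.96 times the next highest, which in both cases was matdel 6 somites replicate 1. Uncx was at 1.02 CPM from 14 counts, against 0.302 CPM from 2 counts in that same library. For Foxc2 (20.2 CPM) and Meox2 (2.55 CPM) the gap to the next library was small, at 1.18 and 1.16 times. Foxc1 at 24.5 CPM ranked 3. This 1 embryo held 63.6% of all counts of Uncx and 25.8% of those of Tbx18, the factors of caudal and rostral somite identity.

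Some other markers were also high in that library. Of the 8 dermomyotome and myotome markers, 4 were highest there, among them Sim1 (7.00 CPM against 0 to 4.30 CPM in the others) and Dmrt2 (5.47 against 0 to 2.87 CPM), and the list summed to 47.6 CPM against 11.0 to 37.3 CPM in the 35 libraries other than matdel 6 somites replicates 1 and 2. Of all genes tested, 5.71% had their highest value in that library. Pax3 ranked 9 and Eya1 ranked 17 there, and Myf5 and Myod1 were at 0. The sclerotome list was highest there too, at 61.9 CPM against 13.1 to 55.9 CPM, with Pax9 at 3.21 CPM. Presomitic mesoderm markers were not raised, at 254 CPM (rank 29 of 37).

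The intermediate mesoderm list was high in both of these matΔ 6-somite libraries, at 70.7 CPM in replicate 2 and 72.9 CPM in replicate 1 against 17.1 to 62.4 CPM in the other 35, led by Lhx1 (30.8 and 23.3 CPM, beside a median of 3.50 CPM). Of its other genes, Osr1 ranked 30 in replicate 2 (28.7 CPM) and Pax8 was at 0 in both. Lateral plate, endothelial and erythroid lists were not high in replicate 2, at ranks 31, 30 and 26. In replicate 1 the lateral plate and heart list was the highest of all libraries, at 374 CPM against 116 to 296 CPM in the 35 others. Of this sum, 211 CPM came from Hand1, a factor of lateral mesoderm. The other genes of the list were not highest there. Foxf1 was at 84.2 CPM, beside a median of 94.7 CPM over the libraries other than replicate 2, and Nkx2-5 was at 0. Hand2 (52.9 CPM), Gata4 (24.3 CPM) and Tbx5 (1.66 CPM) were each exceeded in another library. The part of somite, intermediate mesoderm or lateral plate tissue in the genotype values was not tested.

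**Figure D3:**
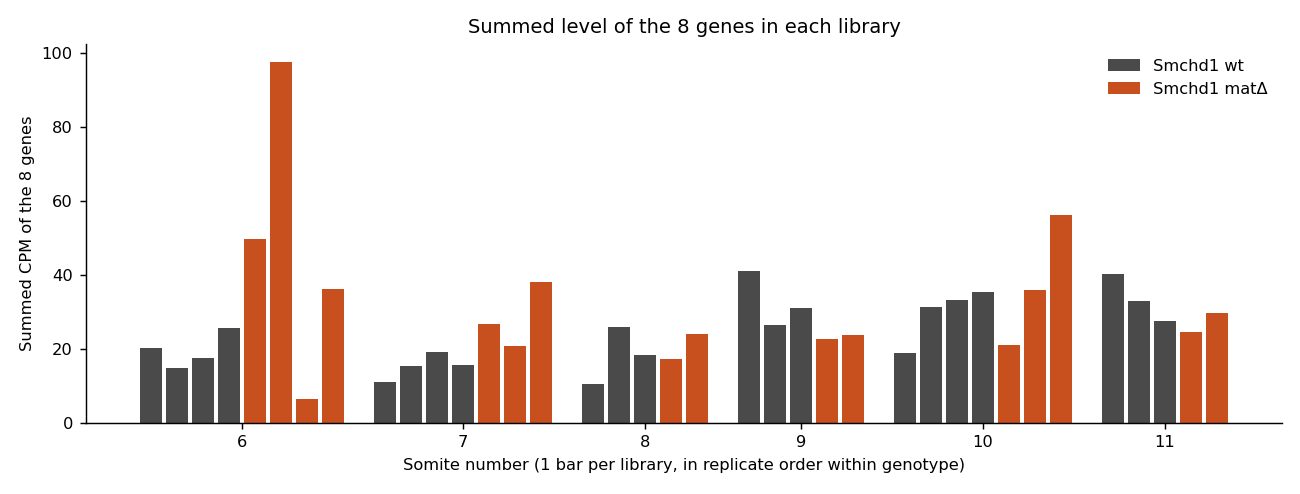
Summed CPM of the 8 genes in each of the 37 libraries, grouped by somite number, with wt in grey and matΔ in orange. Matdel 6 somites replicate 2 reaches 97.5 CPM, and the shallow replicate 3 of the same group is the lowest at 6.54 CPM.

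Spread between embryos of the same stage and genotype was wide for these genes. The pooled within-group SD of log2 CPM was 1.36 for Meox1, 1.298 for Tcf15, 1.12 for Tbx18 and 1.05 for Meox2, against a median of 0.31 over all genes tested. Foxc1 and Foxc2 were at 0.69 and 0.61 and Uncx at 0.53. Low counts widen such an SD, so the variance was also set against that of counting alone. By that ratio Meox1 (33.7), Foxc1 (16.5), Foxc2 (11.1) and Tcf15 (8.72) lay above the median gene (6.12), while Meox2 (5.02), Tbx18 (4.42) and Uncx (1.03) lay below it. For the same relative spread this ratio grows with the count, so it does not rank genes of unlike level. The median gene had a mean log2 CPM of 4.08, against -1.68 for Meox2 and -1.69 for Tbx18. Their lower ratios thus do not show a smaller spread beyond counting.

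For Meox1, 91.1% of genes tested had a smaller ratio, a share taken over genes of unlike level and with matdel 6 somites replicate 2 included. It is thus not a rank of spread. The SD of Meox1 was 0.70 without the shallow replicate 3 of matΔ 6 somites, where it had 0 counts, and 0.63 without replicates 2 and 3 of that group. Foxc1 went to 0.44 without replicate 3. In the wt groups the SD of Meox1 ran from 0.28 at 10 somites to 0.86 at 6 somites, and that of Foxc1 from 0.10 at 9 somites to 0.88 at 8 somites.

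Embryos that lay high for a member of the group tended to lie high for others. Across 37 embryos the deviations from the group means correlated for the 6 pairs among Tcf15, Meox1, Foxc1 and Foxc2 at a median Pearson r of 0.675 (0.552 to 0.819), the closest pair being Meox1 and Foxc1. This is a description, since embryos share library, depth and dissection across genes. The median was 0.627 without matdel 6 somites replicate 2, 0.510 without replicate 3 and 0.492 without both. Over all 21 pairs of the 7 detected genes it was 0.533 and fell to 0.387 without replicate 2, to 0.359 without replicate 3 and to 0.229 without both.

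**Figure D4:**
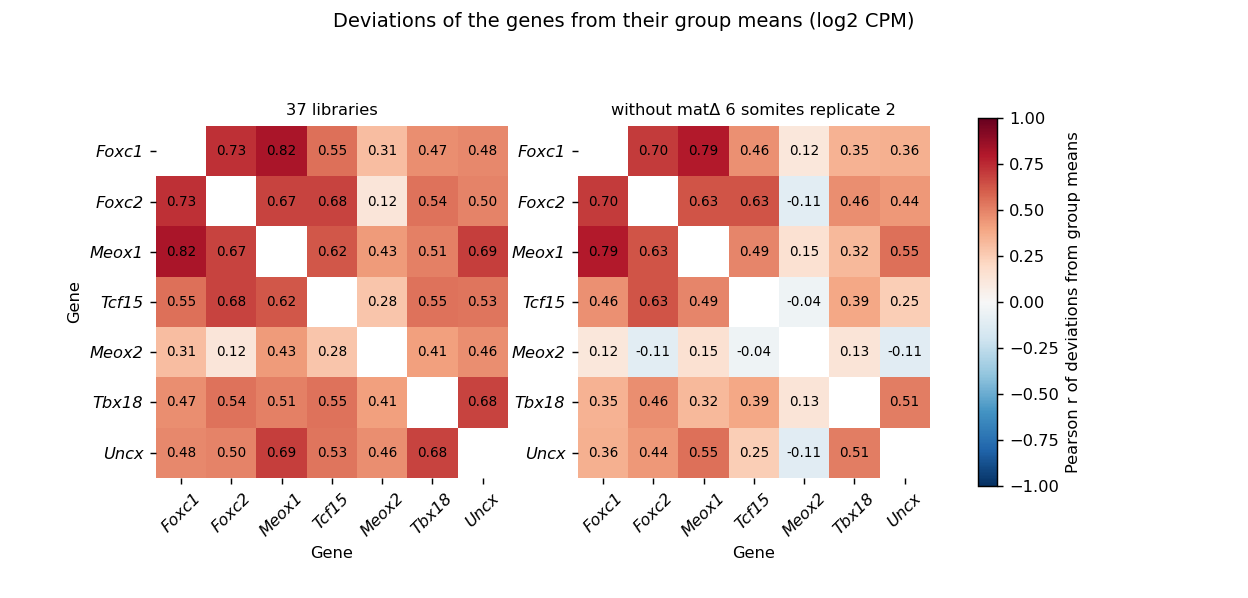
Pearson r between genes of the deviations of log2 CPM from the 12 group means, in 37 libraries (left) and without matdel 6 somites replicate 2 (right). Pairs among Foxc1, Foxc2, Meox1 and Tcf15 stay at 0.46 to 0.79 on the right, while the pairs of Meox2 lie near 0.

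Among all other genes tested, those that followed Foxc1 most closely over the 37 embryos were Zic2 (r = 0.875), Tbc1d4 (0.874) and Gm11149 (0.865), and without matdel 6 somites replicates 2 and 3 Tbc1d4 was the closest (r = 0.843), Zic2 ranked 5 (0.801) and Gm11149 ranked 217 (0.668). For Foxc2 they were Ajap1 (0.799), Fzd7 (0.758) and Vstm2l (0.748), with Ajap1 at 0.722 without these embryos. For Meox1 they were Gm15063 (0.911), Sh2b2 (0.897) and Cnrip1 (0.885), which went to 0.587, 0.586 and 0.315. For Tcf15 they were Zfp30 (0.792), Fbxo31 (0.768) and Slc9b2 (0.746), and 0 of the 3 were among its 3 closest without the pair.

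The 3 closest to Tbx18 were Alkbh4 (0.781), Gm43064 (0.703) and Snrnp70 (0.702), and Alkbh4 stayed first without both embryos (0.706). Meox2 had Gm26641 (0.769), Sgip1 (0.765) and Sycp3 (0.752) and Uncx had Taf6l (0.764), Smyd1 (0.761) and Tmem220 (0.751), none of which stayed among the 3 closest. The lists with and without the 2 embryos thus shared 1 gene of 3 for Foxc1, Foxc2 and Tbx18 and 0 of 3 for the other members.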

How the data were processed

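Per the study's methods and the labels, the authors made poly(A) libraries with an unstranded or a stranded TruSeq kit (which library had which is not stated), sequenced 75 bp single-end reads, trimmed them with Trim Galore 0.4.4, mapped them to GRCm38.p6 with HISAT2 2.0.5 and quantified genes in SeqMonk. The deposited table holds raw counts per gene. Of 35591 rows, 49 repeated an identifier and were dropped, and 26 gene names stored as dates were put back from their identifiers. The deposited log2 RPKM table of Hox genes and the authors' own table of fold changes and p-values were not used.

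Counts were tested with the edgeR 4.0.16 quasi-likelihood test (R 4.3.3) after filterByExpr (minimum count 10) and TMM, two-sided, with Benjamini-Hochberg adjustment over all genes tested and a threshold of 0.05. Genotype was tested over all stages and in windows with somite number as a factor, at single stages by contrasts of 1 fit of 12 groups, and as a trend per somite in each genotype, with sex as covariate. SEs are those implied by the F statistic. CPM used the TMM library sizes, and log2 CPM a prior count of 2. Per-length values used GENCODE M21 exon lengths. The fits were tested on simulated data. DESeq2 1.42.0, another normalisation, no filter, no sex term, a replicate block, females alone, single stages alone and libraries left out were alternatives.

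The members and the gene lists were chosen with earlier results of these data known. The text names the 8 members, the 3 genes closest to each in deviations from group means, and up to 4 genes per list, by the wt trend and then by level. Dmrt2, Nkx3-2, Myf5 and Myod1 were named after their values were seen. Every marker list had 0 genes called between genotypes over all stages and at 6 somites, where 0.0125% and 0% of all genes tested were called. The wt trend of the dermomyotome and myotome markers is not reported here. Within groups, 42 pairs of libraries differed beyond sampling noise (chi-square per degree of freedom 5.12 to 72.3). Intervals and floors cover counting error only.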

Additional observations from a re-analysis of the deposited data

Results flagged for a closer look

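In groups of 4 embryos, each gene detected in the group was checked for a library whose gap to its nearest neighbour was large for the range of the group. Of 25 such gene and group combinations 5 were marked, where chance marks about 1 in 20. Foxc1 in matdel 6 somites replicate 3, the shallowest library, was low at 1.21 log2 CPM against 4.17 to 4.62 in the other 3. Foxc2 was low in wt 6 somites replicate 2 (1.06 against 2.47 to 2.53) and in wt 7 somites replicate 1 (0.77 against 2.15 to 2.36). Tcf15 was low in wt 10 somites replicate 4 (-1.29 against -0.11 to -0.017), and Meox1 was high in wt 6 somites replicate 4 (2.62 against 0.83 to 0.97). Leaving out the last of these brought the Meox1 trend of wt embryos past the threshold, as given above.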

How the results depend on the processing

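Of 1859 recomputed values, 1810 kept their direction and side of the threshold or moved by less than the spread between embryos. Foxc1 kept its wt trend in all 26 alternatives, with 1 member called, or 2 without wt 6 somites replicate 4. At 6 somites 2 members were called with DESeq2 and with no filter, and 0 to 2 with an embryo left out. At 6 to 8 somites 2 were called with no filter. Over 9 to 11 somites the small values changed sign often: Foxc2 was 0.00101 with DESeq2 size factors, 0.00820 with DESeq2 and 0.0078 without sex, and with an embryo left out Foxc2 ranged from -0.25 to 0.17, Meox1 from -0.55 to 0.096 and Tcf15 from -0.36 to 0.50. The matΔ slope of Tcf15 was 0.16 without the ribosomal RNA-rich pair and 0.15 without matdel 6 somites replicates 2 and 3 (chosen after seeing the data), and ranged from -0.23 to 0.16 with an embryo left out; that of Meox1 was 0.0024 without the ribosomal RNA-rich pair. The cause was not tested. With a prior count of 0.5 the median within-group SD was 1.68. The median r of the 4 main members was 0.583 without the ribosomal RNA-rich pair, 0.492 without replicates 2 and 3, and 0.510 to 0.706 with an embryo left out.

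Same-numbered embryos of a stage mostly did not deviate together. Their r ran from -0.27 to 0.54 (median 0.016), over 0.1 in 4 of 16 pairs, and 6 of 16 matΔ embryos were closest to their own number. At 9 somites r was 0.54 and 0.31. The numbers were thus not taken as pairs, and whether they pair embryos at single stages was not tested. With a replicate block 0 members were called in each genotype comparison, as without it, and Meox2 at 6 somites was -0.45 instead of 0.38. Depth limits Meox2, Tbx18 and Uncx, and all genes in the shallowest library.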
